A study of Mus musculus with 6 samples.

Results

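The glutathione S-transferases (GST), UDP-glucuronosyltransferases (UGT) and sulfotransferases (SULT) are the main enzyme families that join a water-soluble group to drugs, dietary compounds, bile pigments and steroids. The genes described here are those whose symbol on the array belongs to 1 of these families, each read through its own probe set, and where a gene had several, through the one with the highest mean over the 6 arrays. The rule found 49 genes among 19938: 22 of the GST family (the microsomal Mgst genes included), 11 UGT and 16 SULT genes. Of these, 26 were bright enough to be tested, with a mean above 5.81 on the log2 scale (the floor, set at the 40th percentile of probe-set means): 19 GST, 1 UGT and 6 SULT genes. The other 23 were dim on these arrays.

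Each of the 6 arrays held RNA of sorted epithelial cells (EpCAM positive, CD45 negative) from the colon of wild-type male BALB/c mice, 6 weeks old. All mice had been without food for 36 h and had then eaten again for 24 h. The control group (re-fed) is 3 samples with no treatment, and the other 3 samples are re-fed mice given antibiotics during the re-feeding, with names, dose and route unstated in the labels. The labels call the samples biological replicates and do not say how many mice each holds, so p-values measure the spread between these samples.

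GST enzymes couple glutathione to electrophilic compounds, and several also act as peroxidases or isomerases. UGT enzymes sit in the endoplasmic reticulum and transfer glucuronic acid, while SULT enzymes are cytosolic and transfer sulfate from the activated donor PAPS. In the gut these enzymes form a barrier against compounds from food and bacteria, and bacterial enzymes in the lumen can cleave the conjugates again. The comparison asks which of these genes read differently in the re-fed colonic epithelium when antibiotics are given.

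The sorted cells read as epithelium. Epcam stood at 12.16 in the re-fed group and 12.12 with antibiotics (group means of log2 expression, n = 3 each). Of 9 leukocyte markers with a probe set, 7 lay under the floor, among them Ptprc, which encodes CD45. The leukocyte markers Cd3e and Cd68 lay above it, as did 4 of 7 stroma and endothelium markers. Marker lists moved with the groups in part. The 8 pan-epithelial markers all lay below 0 in the log2 difference, antibiotics minus re-fed, where 49.3% of all genes tested did. Krt18 (-0.59) and Krt20 (-0.46) lay furthest from 0, and Epcam (-0.036), Cdh1 (-0.034) and Cldn7 (-0.026) nearest. The groups did not overlap in 4 of the 8 (Krt8, Krt18, Krt19 and Krt20), where 19.6% of all genes had such a separation. In the 4 arrays of the common run, described below, 6 of the 8 lay below 0 (47.4% of all genes). The log2 of their summed level was 15.59 to 15.65 in the re-fed arrays and 15.43 to 15.52 with antibiotics. The 4 proliferation markers all lay above 0, as did 6124 of the 12071 genes tested. The summed level of these markers was 9.32 to 9.74 against 9.70 to 10.49, with antibiotics replicate 3 highest and the groups overlapping. In the common run 3 of these 4 markers lay above 0 (6345 of all 12071 genes), and the median difference of the 4 was 0.22 instead of 0.56. The summed levels also overlapped for absorptive colonocytes (16.14 to 16.24 against 16.05 to 16.18), goblet cells (15.47 to 15.68 against 15.36 to 15.54), crypt-base cells (9.06 to 9.39 against 9.33 to 9.76), leukocytes (8.81 to 8.85 against 8.80 to 8.86, while their mean log2 level was 5.32 to 5.33 against 5.34 to 5.41), stroma and endothelium (8.90 to 8.96 against 8.87 to 9.01), small-intestinal and Paneth cells (7.76 to 7.86 against 7.80 to 7.92) and hepatocytes (8.48 to 8.78 against 8.65 to 8.97). The part of these shifts in the results below was not tested, and fewer cells of a type and less RNA per cell cannot be told apart in such samples. A set of 4 arrays (re-fed 2, re-fed 3, antibiotics 1 and antibiotics 2) share 372 to 435 identical deposited values per pair. These 4 seem to come from 1 normalisation run, here called the common run. Pairs that include re-fed replicate 1 or antibiotics replicate 3 share 42 to 198. Antibiotics replicate 3 holds only 10829 distinct deposited values, beside 34568 to 34596 in the other arrays, and so has fewer values to share. Each difference is therefore given over 6 arrays and, where stated, within the 4 arrays of the common run.

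No GST, UGT or SULT gene had an adjusted p under 0.05 in the limma fit (Benjamini-Hochberg over 12071 genes), where 0.058% of all genes did. The closest was Sult2b1, the sulfotransferase of cholesterol and hydroxysteroids, which stood lower with antibiotics at an adjusted p of 0.117. The omega-class transferase Gsto1 stood higher, and the alpha-class Gsta4 and mu-class Gstm5 stood lower. At an unadjusted p under 0.05 there were 5 of the 26 genes, where 12.6% of all genes tested had such a p. Of these, 2 lay higher (Gsto1 and Gstm1; 5.3% of all genes) and 3 lower (Sult2b1, Gsta4 and Gstm5; 7.32% of all genes).

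The array values of Sult2b1 were 9.60, 9.45 and 9.66 for the re-fed samples, in the order of their replicate numbers, and 9.02, 9.11 and 9.07 for those given antibiotics (log2 expression). All 3 arrays with antibiotics lay below all 3 without, and the gap between the groups was wider than the range within either. The means were 9.57 ± 0.10 and 9.07 ± 0.043 (SD, n = 3 each), a difference of -0.50 (SE 0.10, 95% interval -0.73 to -0.27), or a 1.42-fold lower level. In the common run it was -0.49 (limma, adjusted p = 0.111).

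Gsto1, a transferase that also reduces dehydroascorbate and arsenic compounds, read 10.62, 10.55 and 10.48 in the re-fed arrays and 10.90, 11.06 and 10.87 with antibiotics. Here too the groups did not overlap, with the antibiotics arrays above. The difference was 0.40 (0.395, SE 0.10, 95% interval 0.16 to 0.63, adjusted p = 0.203 by limma), a 1.31-fold higher level, and 0.47 in the common run (adjusted p = 0.111).

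**Figure D1:**
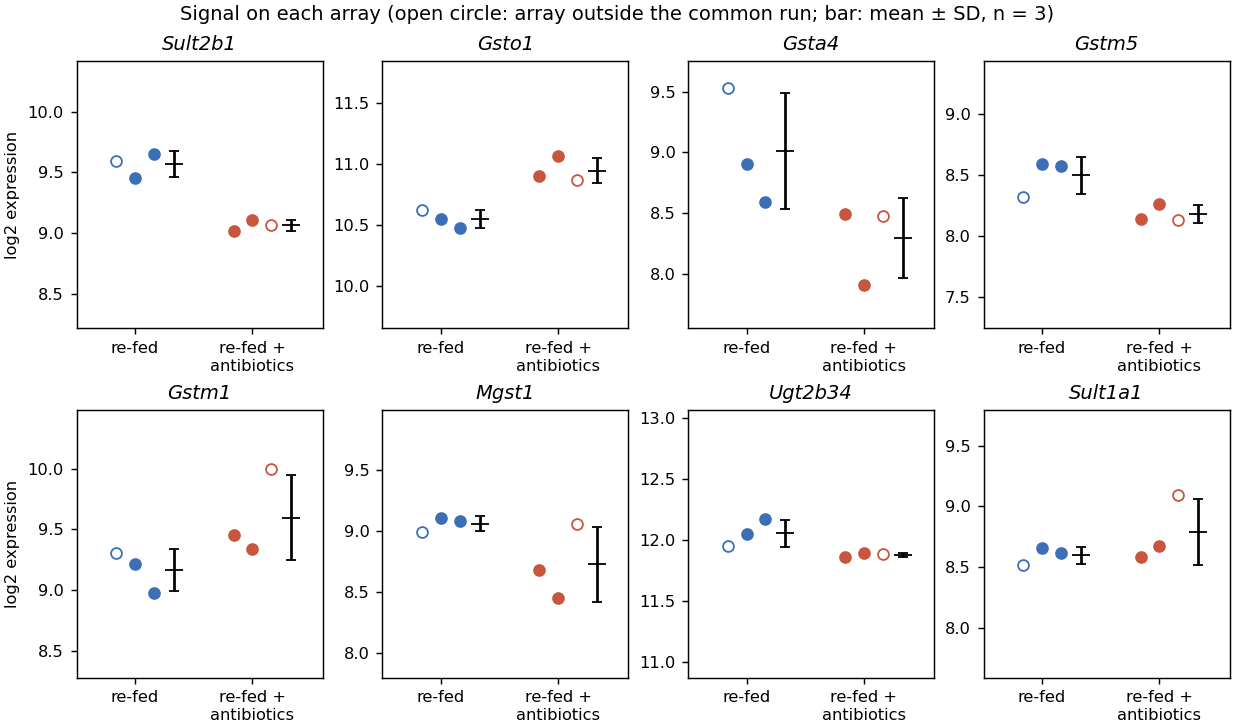
Log2 expression (vertical axis, a span of the same length in each panel) of 8 genes on each array, re-fed in blue and antibiotics in red, with open circles for the 2 arrays outside the common run and the group mean ± SD (n = 3) beside the points. Sult2b1 (9.45 to 9.66 against 9.02 to 9.11) and Gsto1 (10.48 to 10.62 against 10.87 to 11.06) have the clearest gaps. Antibiotics replicate 3 stands apart from its group in Gstm1, Mgst1 and Sult1a1.

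The upstream sequences of genes with an unadjusted p under 0.05 are shown because these are the genes whose groups stand furthest apart relative to their error. RefSeq's promoter table (GRCm38.p6) holds a window for 45 of the 49 genes, and for 4 of those 5. Each line below gives the 250 bases before the annotated start, 5′ to 3′ on the gene's own strand, and for genes with 2 windows in the table the first one is printed. Capitals mark 2 short motifs searched on both strands: TGACNNNGC, the core of the antioxidant response element bound by NRF2, and GCGTG, the core of the xenobiotic response element bound by the aryl hydrocarbon receptor.
Sult2b1, chr7:45759613-45759862, minus strand: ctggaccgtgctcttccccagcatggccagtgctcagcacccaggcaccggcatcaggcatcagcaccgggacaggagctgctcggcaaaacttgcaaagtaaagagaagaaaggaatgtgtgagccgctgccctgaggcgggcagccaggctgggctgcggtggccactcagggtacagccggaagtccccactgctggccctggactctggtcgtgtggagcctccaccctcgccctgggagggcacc
Gsto1, chr19:47854723-47854972, plus strand: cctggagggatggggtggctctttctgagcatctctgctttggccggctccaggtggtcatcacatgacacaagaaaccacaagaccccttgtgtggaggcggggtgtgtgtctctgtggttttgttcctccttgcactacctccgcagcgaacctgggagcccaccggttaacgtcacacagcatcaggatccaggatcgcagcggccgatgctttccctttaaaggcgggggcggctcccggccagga
Gstm5, chr3:107895604-107895853, plus strand: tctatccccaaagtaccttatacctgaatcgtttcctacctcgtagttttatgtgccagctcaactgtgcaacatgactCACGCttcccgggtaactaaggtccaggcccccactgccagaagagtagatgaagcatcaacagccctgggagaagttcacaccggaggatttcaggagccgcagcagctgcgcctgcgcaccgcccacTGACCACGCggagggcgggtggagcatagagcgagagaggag
Gstm1, chr3:108017974-108018223, minus strand: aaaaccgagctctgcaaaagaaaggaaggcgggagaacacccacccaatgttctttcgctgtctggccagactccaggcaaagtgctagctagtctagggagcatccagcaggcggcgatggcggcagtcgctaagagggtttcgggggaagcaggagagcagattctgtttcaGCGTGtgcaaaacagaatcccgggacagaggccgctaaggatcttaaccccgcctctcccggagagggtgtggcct
Gstm5 holds both motifs, with both GCGTG matches on the opposite strand (printed as CACGC) and 1 of them inside the TGACNNNGC match, and Gstm1 holds GCGTG. The stretches of Gsto1 and of Sult2b1 printed here hold neither set of letters, and both windows of Sult2b1 in the table hold GCGTG elsewhere. Counted over the full windows of the table, which run 50 bases past the start, TGACNNNGC was present for 4 of 23 genes above the floor that have a window (17.4%) and for 4 of all 45 with a window (8.89%), beside 14% of 27025 genes, dim ones included. GCGTG was present for 7 of 23 (30.4%) and 9 of 45 (20%), beside 35.2%. The 4 genes with TGACNNNGC were Gsta3, Gstm5, Gstm7 and Mgst1, which differed by 0.19, -0.32, 0.16 and -0.33. A match is a description of the letters in this window.

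Over all 26 genes the median difference was -0.097, with 16 genes below 0 and 10 above, beside a median of 0.0033 over all genes tested, of which 49.3% lay below 0. Within the common run 21 of the 26 lay below 0 (47.4% of all genes) and 5 above, with a median of -0.12, beside 0.012 over all genes. The arrays of the groups did not overlap in 8 of the 26 genes, where 19.6% of all genes had such a separation. It placed 3 higher with antibiotics (Gstm1, Gstm3 and Gsto1; 8.88% of all genes) and 5 lower (Gsta4, Gstm5, Gstp1, Sult2b1 and Ugt2b34; 10.7% of all genes). Within the common run no gene passed (0.447% of all genes did), 8 of 26 had an unadjusted p under 0.05 (17.4% of all genes), and the groups did not overlap in 13 of 26 (50.6% of all genes).

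The 95% interval of the difference lay wholly within 1.5-fold in either direction for 18 of the 26 genes and within 2-fold for 25, the exception being Gsta4. Of all genes tested, 10165 and 11878 of 12071 had such intervals. When arrays were weighted by their estimated quality, 4 of the 26 passed, Sult2b1 (adjusted p = 0.00985), Gsto1 (0.0209), Gstm5 (0.0226) and Mgst1 (0.0307), in a fit that called 9.68% of all genes. With the deposited scaling the groups did not overlap in 3 of 26, and in 6.69% of all genes. None of the 4 genes above passed with that scaling, where the median difference of all genes was -0.12. Sult2b1 differed by -0.69 (limma, adjusted p = 0.708), Gsto1 by 0.21, Gstm5 by -0.50 and Mgst1 by -0.54 (limma, adjusted p = 0.9997 for each of the last 3).

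**Figure D2:**
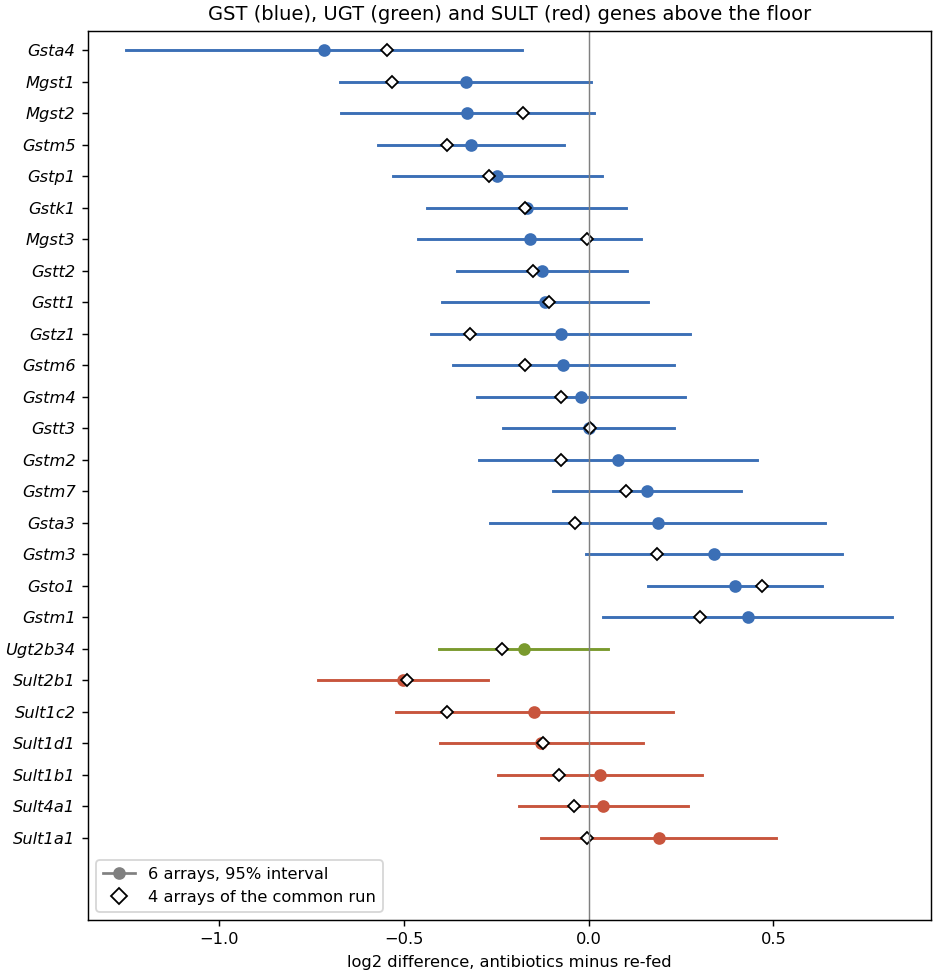
Log2 difference, antibiotics minus re-fed, for the 26 genes above the floor, with the 95% interval from limma over 6 arrays (filled circles and lines; GST blue, UGT green, SULT red) and the difference within the 4 arrays of the common run (open diamonds). The intervals of Sult2b1, Gsto1, Gsta4, Gstm5 and Gstm1 leave out 0, and 21 of the 26 diamonds lie below 0.

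Among the 19 GST genes tested the median difference was -0.076, with 12 below 0 and 7 above, and the classes lay on both sides of 0. The alpha-class Gsta4, which conjugates hydroxynonenal, a product of lipid peroxidation, read 9.53, 8.91 and 8.59 in the re-fed arrays and 8.49, 7.91 and 8.48 with antibiotics. The groups did not overlap, but their nearest arrays lay close together (8.59 against 8.49), and re-fed replicate 1 stood well above the rest. The difference was -0.72 (SE 0.24, limma adjusted p = 0.286), 1.64-fold lower and the largest of the 26, and -0.55 in the common run. It ranged from -0.92 to -0.45 when each array was left out in turn, with -0.45 without re-fed replicate 1. The other alpha gene with its own probe set, Gsta3, differed by 0.19 (SE 0.20), and by -0.036 in the common run.

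Gsta1 and Gsta2, the alpha genes long known as inducible by dietary antioxidants, share 4 probe sets with 2 predicted genes and so fall outside the rule. These probe sets were read in a separate fit over all 14046 probe sets with a gene above the floor, which called 0.0214% of them and none of the 7 shared by members of these families. The first of the 4 read 8.79, 7.48 and 7.56 in the re-fed arrays and 7.54, 7.16 and 7.40 with antibiotics. Re-fed replicate 1 stood more than a full log2 unit above every other array, and the other 5 arrays overlapped between the groups. The difference was -0.58 over 6 arrays (SE 0.31, limma adjusted p = 0.461) and -0.15 without re-fed replicate 1. In all 4 probe sets the difference over 6 arrays was between -0.61 and -0.49, and without re-fed replicate 1 between -0.19 and -0.12.

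The mu class is a row of neighbouring genes on mouse chromosome 3, and its members stood on both sides of 0. Gstm1, a mu-class enzyme, read 9.31, 9.22 and 8.97 in the re-fed arrays and 9.45, 9.34 and 9.99 with antibiotics. The groups were separated by a narrow gap (9.31 against 9.34), and antibiotics replicate 3 stood highest. Its difference was 0.43 (SE 0.17, limma adjusted p = 0.355), and 0.23 without antibiotics replicate 3. Gstm5 read 8.32, 8.59 and 8.58 against 8.14, 8.26 and 8.13, so that every array with antibiotics lay below every re-fed array, again by a narrow gap (8.26 against 8.32). It differed by -0.32 (SE 0.11, adjusted p = 0.3 by limma), and by -0.38 in the common run.

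The other mu genes gave differences from -0.069 (Gstm6) to 0.34 (Gstm3), none with an unadjusted p under 0.05. Gstm3 has 2 probe sets of its own, and they disagree. The one with the higher mean, used here by the rule, gave 0.34 (SE 0.15) and no overlap of the groups, with 0.17 without re-fed replicate 1, its lowest array, and 0.19 in the common run. The other gave -0.10 (SE 0.18) with overlapping groups. Gstm2 differed by 0.08 (0.0796) over 6 arrays and by -0.075 in the common run, and antibiotics replicate 3 (10.12) was its highest array. The mu genes resemble each other in sequence, and whether their probes cross-hybridise was not tested.

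**Figure D3:**
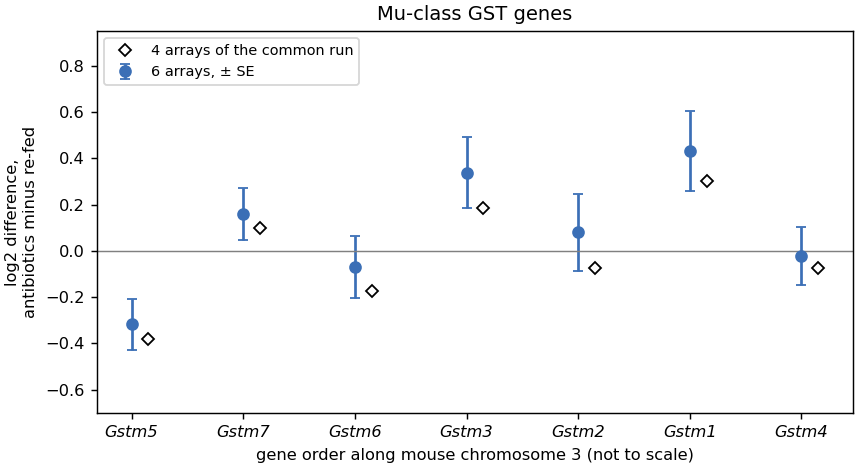
Log2 difference, antibiotics minus re-fed, of the 7 mu-class GST genes in their order along mouse chromosome 3 (order alone, no scale), as the value over 6 arrays ± SE (circles) and the value within the 4 arrays of the common run (open diamonds). Gstm5 at one end lies lowest (-0.32) and Gstm1 and Gstm3 highest (0.43 and 0.34), and the second probe set of Gstm3, not drawn, gave -0.10.

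The 3 microsomal transferases, membrane proteins that also reduce lipid hydroperoxides, all lay below 0. Mgst1 read 8.99, 9.11 and 9.08 in the re-fed arrays and 8.68, 8.45 and 9.06 with antibiotics. Antibiotics replicates 1 and 2 were low, and antibiotics replicate 3 lay among the re-fed values. The difference was -0.33 over 6 arrays (SE 0.15, adjusted p = 0.404 by limma) and -0.53 in the common run (adjusted p = 0.0945), the smallest adjusted p of the 26 there. Leaving out 1 array moved it from -0.19 (without antibiotics replicate 2) to -0.50 (without antibiotics replicate 3). Mgst2, which can make leukotriene C, read 9.95, 9.73 and 10.05 against 9.87, 9.55 and 9.32, and differed by -0.33 (SE 0.15). The values overlapped between its groups, and the difference was -0.18 in the common run and -0.20 without antibiotics replicate 3. Mgst3 differed by -0.16 and by -0.0051 in the common run.

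Gstp1, the pi-class enzyme, read 11.84, 11.66 and 11.75 in the re-fed arrays and 11.60, 11.27 and 11.64 with antibiotics. The groups were separated by the gap from 11.64 to 11.66 alone, and the difference was -0.25 (SE 0.13, limma adjusted p = 0.453), and -0.13 without antibiotics replicate 2, its lowest array. The 2 probe sets that Gstp1 shares with Gstp2 gave -0.034 and -0.073, with overlapping groups. Gstk1, a transferase of mitochondria and peroxisomes, differed by -0.17 (SE 0.12). Gstz1, the maleylacetoacetate isomerase of tyrosine breakdown, differed by -0.076 (SE 0.16), and by -0.32 in the common run, where it had an unadjusted p under 0.05. The theta genes Gstt1, Gstt2 and Gstt3 gave -0.12, -0.13 and 0.00016, and Gstt3 had a 95% interval from -0.23 to 0.23.

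Of the 11 UGT genes only Ugt2b34, a UGT2B enzyme, lay above the floor. It read 11.95, 12.05 and 12.17 in the re-fed arrays and 11.86, 11.89 and 11.89 with antibiotics. The arrays with antibiotics were close together and all below the re-fed arrays. The difference was -0.18 (SE 0.10, 95% interval -0.41 to 0.053, limma adjusted p = 0.503), and -0.23 in the common run. The genes of the Ugt1a cluster, which include the bilirubin-conjugating Ugt1a1, share their last exons, and 1 probe set stands for 8 of them. It read 8.21, 8.13 and 8.42 in the re-fed arrays and 8.37, 8.37 and 7.97 with antibiotics. The groups overlapped, and the difference was -0.011 (SE 0.14, 95% interval -0.33 to 0.30, adjusted p = 0.983 in the limma fit over probe sets). This probe set does not tell single Ugt1a genes apart.

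Among the 6 SULT genes tested, 3 lay above and 3 below 0, with a median of -0.049. Apart from Sult2b1, none had an unadjusted p under 0.05. Sult1a1, the phenol sulfotransferase, read 8.52, 8.66 and 8.61 in the re-fed arrays and 8.58, 8.68 and 9.10 with antibiotics. Antibiotics replicate 3 stood apart and the other 5 arrays lay close together, so that the difference of 0.19 (SE 0.14, adjusted p = 0.609 by limma) came to 0.034 without that array and -0.0047 in the common run. Sult1b1, a sulfotransferase of phenols and thyroid hormones in the gut, differed by 0.031 (SE 0.12, 95% interval -0.25 to 0.31). Sult1d1, which sulfates catecholamines in the mouse, differed by -0.13 (SE 0.12). Sult1c2 gave -0.15 over 6 arrays and -0.38 in the common run, where its unadjusted p was under 0.05. Sult4a1, known mainly from the brain, lay just above the floor (means 5.79 and 5.83) and differed by 0.04 (0.0400, SE 0.10). In the common run all 6 SULT genes lay below 0, with a median of -0.10.

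Of the 26 genes, antibiotics replicate 2 held the lowest array value for 9, where it did for 14.3% of all genes tested. Antibiotics replicate 3 held the highest value for 8 and the lowest for 6, beside 22.7% and 26.1% of all genes. That array also deviated most over all genes, by a mean absolute 0.182 from the 6-array means, beside 0.117 to 0.148 in the other arrays, and by 0.216 over the 26 genes. The median deviation of the 19 GST genes from their own 6-array means was -0.19 in antibiotics replicate 2 and 0.082 in antibiotics replicate 3, and between 0.011 and 0.021 in the other 4 arrays. Over all genes tested these medians lay between -0.016 and 0.013. The 8 genes highest on antibiotics replicate 3 were Gstm1, Gstm2, Gstm4, Gstm7, Gsta3, Gstz1, Sult1a1 and Sult4a1, and the 6 lowest there were Gstm5, Gstk1, Gstt2, Mgst2, Mgst3 and Sult1d1.

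**Figure D4:**
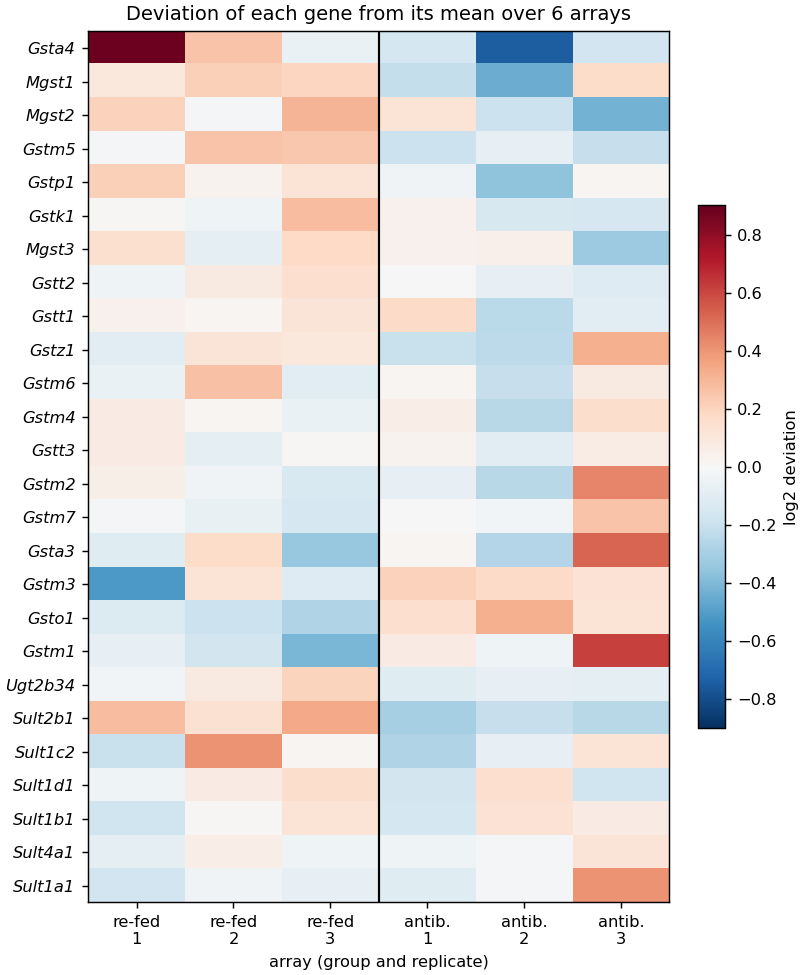
Deviation of each of the 26 genes from its own mean over 6 arrays (log2, colour), with genes in rows ordered by family and difference and arrays in columns, the line dividing re-fed from antibiotics arrays. Antibiotics replicate 3 holds the highest value of 8 genes (Gstm1 at 9.99 and Gsta3 at 6.81 among them), antibiotics replicate 2 the lowest value of 9, and the rows of Sult2b1 and Gsto1 change colour at the line.

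Genes around the conjugating enzymes were read from a list of 57 written from general knowledge, of which 52 had a probe set of their own and 41 lay above the floor. None passed over all genes, and the median difference was 0.048. An unadjusted p under 0.05 was found for 9 (22%), beside 12.6% of all genes, 3 of them higher and 6 lower. In the common run 12 of the 41 had such a p, beside 17.4% of all genes. Of 12 genes of cofactor supply, 6 lay above and 6 below 0. Gsr, the reductase that restores glutathione, had group means of 10.06 (re-fed) and 10.48 (antibiotics), a difference of 0.42 (SE 0.14, limma adjusted p = 0.268), and Gclm, the modifier subunit of the rate-limiting step of glutathione synthesis, differed by 0.27 (SE 0.10). Its catalytic partner Gclc differed by 0.078 (SE 0.17) and the synthetase Gss by -0.20 (SE 0.10). Papss1, which makes the sulfate donor PAPS, differed by -0.23 (SE 0.096) and its paralog Papss2 by -0.044 (SE 0.18). Ugdh, which makes UDP-glucuronic acid, differed by 0.072 (SE 0.12).

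Of 8 genes that process glutathione or its conjugates, the dipeptidase Cndp2, which cleaves cysteinylglycine, differed by 0.40 (0.403, SE 0.11, limma adjusted p = 0.203), and its arrays did not overlap. The brush-border dipeptidase Dpep1 differed by -0.53 (SE 0.20) and Chac2, which degrades glutathione, by -0.38 (SE 0.16), both with overlapping groups. Among 4 other conjugating enzymes, the thiopurine methyltransferase Tpmt had group means of 9.70 (re-fed) and 9.30 (antibiotics), a difference of -0.40 (SE 0.10, adjusted p = 0.194 by limma), and the acetyltransferase Nat2 differed by -0.38 (SE 0.19) and Comtd1 by 0.096 (SE 0.10).

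Abcc3, which exports glucuronides at the basolateral side, was the 1 of 4 export genes with an unadjusted p under 0.05 (-0.44, SE 0.14, limma adjusted p = 0.259). Abcg2 differed by 0.061. Abcc1 differed by 0.19, and by 0.38 in the common run, where both it and Abcc3 had an unadjusted p under 0.05. The 4 genes of deconjugation, among them the lysosomal glucuronidase Gusb (0.070, SE 0.11), had none with such a p. The arylsulfatase Arsb, furthest from 0, differed by 0.36 (SE 0.18), and by 0.033 in the common run. The glucosylceramidase Gba2 differed by -0.079 (SE 0.11). Of 9 regulators, Cdx2, an intestinal transcription factor, differed by -0.32 (SE 0.11, adjusted p = 0.3 by limma). Ppara, a fatty acid sensor, differed by -0.21 (SE 0.14). Nfe2l2, which encodes NRF2, differed by -0.11 (SE 0.098), its inhibitor Keap1 by 0.15 (SE 0.10), the pregnane X receptor Nr1i2 by 0.19 (SE 0.099) and the aryl hydrocarbon receptor Ahr by 0.068 (SE 0.11).

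**Figure D5:**
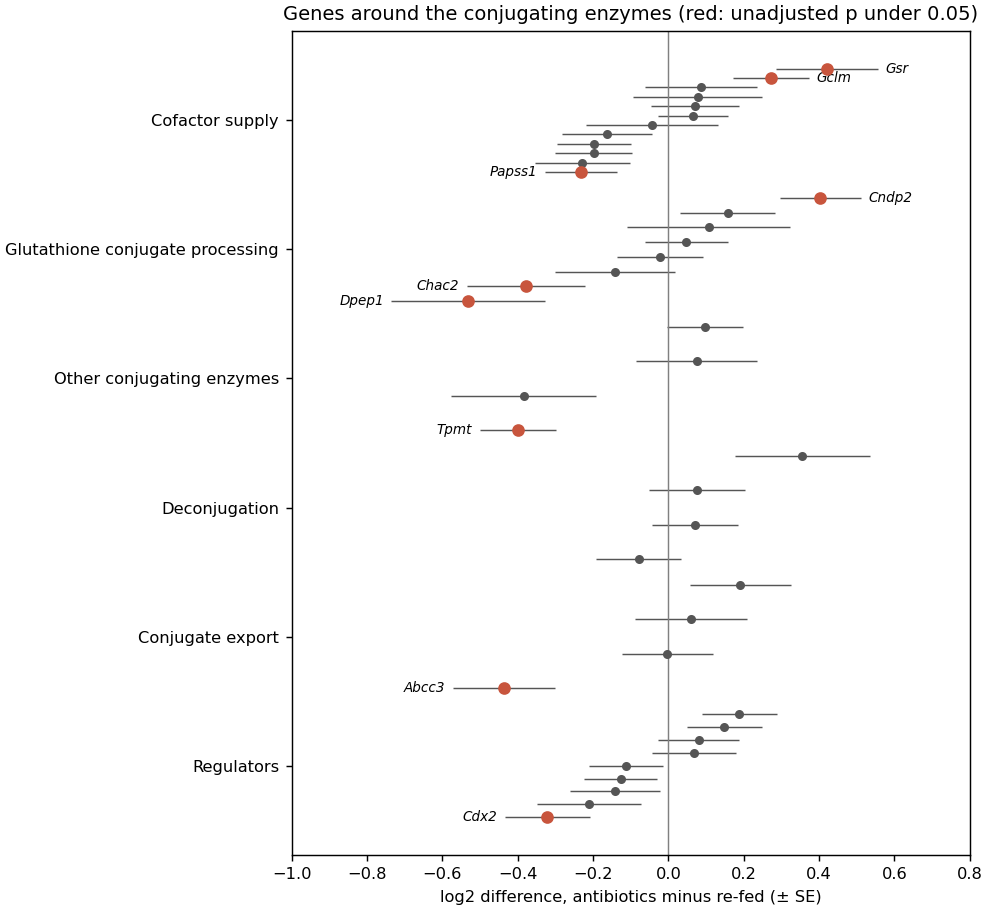
Log2 difference, antibiotics minus re-fed, ± SE over 6 arrays for the 41 listed genes above the floor, grouped by role, with named red points for the 9 with an unadjusted p under 0.05. The red points lie on both sides of 0, from Dpep1 (-0.53) to Gsr (0.42), and none passed the adjusted test.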

How the data were processed

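Total RNA of the sorted cells (6 µg) gave biotin-labelled cRNA for Affymetrix arrays, per the labels' protocols. The deposited values are log2 expression per probe set (35557), made with RMA per the submitters' processing notes; its version is not given there. A gene name came from the platform table (21789 probe sets with 1 gene, 1621 with several, 12147 unnamed here). All 49 genes of the rule matched a RefSeq table (GRCm38.p6) by Entrez identifier, used for names, chromosome and gene order.

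Deposited array medians ran from 5.63 to 6.17, so values were quantile normalised over the probe sets with a gene. Dim genes, with means below the 40th percentile (5.81), were not tested; RMA values carry no detection call. The 2 groups were tested by limma 3.58.1 under R 4.3.3 (lmFit and eBayes, no block, two-sided, Benjamini-Hochberg over 12071 genes, threshold 0.05). The procedure was tested on simulated data with independent noise and shifts larger than any difference of the genes described here. Whether it finds smaller differences was not tested. Folds are given higher over lower, and errors are SDs or moderated SEs. The number of arrays limits the precision.

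The members, lists and alternatives were chosen with earlier results of these data known. Every member may be named. Array values are given for those with an unadjusted p under 0.05 and the 2 smallest p of each family. They are also given for Mgst1, Mgst2, Gstp1, the shared probe sets and the dim Ugt2b35, chosen after their values were seen. Other listed genes are named where unadjusted p is under 0.05 or among the 3 smallest of their group; Gclc, Gss, Papss2, Ugdh, Nfe2l2, Keap1 and Ahr were named for their role, after their values were seen. No pairing by replicate number was seen: the deviations of same-numbered arrays correlated at 0.0209, -0.034 and -0.225. These values cannot decide whether the samples were paired, since re-fed replicate 1 and antibiotics replicate 3 lie outside the common run.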

Additional observations from a re-analysis of the deposited data

How the results depend on the processing

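No gene of the 3 families passed under any alternative except array weights, which gave 4 (Sult2b1 -0.50, Gsto1 0.39, Gstm5 -0.39 and Mgst1 -0.41), with weights from 0.33 for antibiotics replicate 3 to 3.82 for antibiotics replicate 1. A block by replicate number gave 0 calls (smallest adjusted p = 0.257 by limma) and changed no call. Leaving out 1 array at a time gave 0 calls, with smallest adjusted p-values of 0.127 to 0.387. Within the common run all settings gave 0. The count of genes with groups apart was 8, and 3 with the deposited scaling, 13 in the common run, 17 with the deposited scaling there (55.2% of all genes), and 8 to 13 with 1 array left out (13 without antibiotics replicate 1), where 26% to 33.5% of all genes had groups apart. Family medians with the deposited scaling were -0.20 (GST), -0.28 (UGT) and -0.21 (SULT, -0.17 in the common run), where the median of all genes moved to -0.12, and the UGT median without the floor was -0.062. Leaving out 1 array gave -0.13 to 0.016 for GST, -0.23 to -0.12 for UGT and -0.12 to 0.032 for SULT. Of 362 values of single genes under the alternatives, 33 changed sign, and 15 of the 26 genes never did. With the deposited scaling the sign turned for Gstm2 (-0.10), Gstt3 (-0.18), Sult1a1 (-0.018) and Sult1b1 (-0.15), and with it in the common run for Gstm2 (-0.15), Gstt3 (-0.085), Sult1a1 (-0.12) and Sult1b1 (-0.16). In the common run it turned for Gsta3 (-0.036), Gstm2 (-0.075), Sult1a1 (-0.0047), Sult1b1 (-0.081) and Sult4a1 (-0.040), and with array weights for Gstm2 (-0.0049), Gstm4 (0.022), Gstt1 (0.037), Sult1b1 (-0.12) and Sult4a1 (-0.032). With 1 array left out the signs varied for Gsta3 (-0.029 to 0.37), Gstm2 (-0.12 to 0.22), Gstm4 (-0.11 to 0.098), Gstm6 (-0.14 to 0.046), Gstt3 (-0.043 to 0.049), Gstz1 (-0.25 to 0.022), Sult1b1 (-0.051 to 0.12), Sult1c2 (-0.29 to 0.019) and Sult4a1 (-0.0075 to 0.081). The cause of these shifts was not tested. The settings for probe sets shared by several genes and for unadjusted p in the common run were added after seeing the data.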

Other observations

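The 23 genes under the floor read between 2.96 and 6.52 on single arrays and were not tested. They were 3 GST genes (Gsto2, Gstp3 and Gstt4), 10 SULT genes (Sult1c1, the oestrogen sulfotransferase Sult1e1, Sult2a3, Sult2a6, Sult2a8, Sult3a1, Sult3a2, Sult5a1, Sult6b1 and Sult6b2) and 10 UGT genes (Ugt2a3, Ugt2b1, Ugt2b35, Ugt2b36, Ugt2b37, Ugt2b38, Ugt2b5, Ugt3a1, Ugt3a2 and the galactosylceramide synthase Ugt8a). Their means over 6 arrays were 5.10 to 5.74 for GST, 3.12 to 5.66 for SULT and 3.75 to 5.61 for UGT genes. Ugt2b35 varied most: it read 4.66, 5.90 and 5.65 in the re-fed arrays and 5.53, 5.38 and 6.52 with antibiotics. Its lowest and highest arrays were the 2 outside the common run.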
